A study of Mus with 18 samples.

Results

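The glucocorticoid receptor gene Nr3c1 and 7 genes that act around it or respond to it (Hsd11b1, Fkbp5, Tsc22d3, Sgk1, Klf9, Glul and Errfi1) were followed by RNA-seq in mouse C2C12 cells and mouse gastrocnemius muscle. They were chosen by gene symbol with earlier results of these data known, and all 8 were found among the 21401 symbols of each table. C2C12 is a mouse myoblast line, LPS (lipopolysaccharide) is a bacterial cell wall component that provokes inflammation, and MIC-1 (moringa isothiocyanate-1) is an isothiocyanate isolated from Moringa oleifera seeds. The wild type C2C12 libraries were labelled as saline vehicle control, LPS (1 μg/mL) or LPS-MIC-1 (1 μg/mL LPS with 10 μM MIC-1 for 24 h). The study's own text gives a lower MIC-1 concentration for the sequenced cells than the label, and ethanol as the vehicle of the cells. The muscle came from wild type C57BL/6 male mice labelled as given saline vehicle, LPS (10 mg/kg, intraperitoneally) or LPS-MIC-1. In LPS-MIC-1, MIC-1 (80 mg/kg in DMSO, by gavage daily) was given for 3 days before the same LPS dose. For the control mice the study's own text gives oral DMSO. Muscle was collected 16 h after LPS, and the ages of the mice were not given in the sources used here. There was no group with MIC-1 alone, so LPS-MIC-1 was compared with LPS and with control. Each group had 3 libraries, and nothing in the labels says whether the C2C12 libraries came from separate cultures. The titles of the muscle libraries number them as replicates without naming mice, and the study's own text gives n = 3 for the muscle groups. The p-values of both tables therefore measure the spread between libraries, which may be technical.

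Glucocorticoids are adrenal steroid hormones that enter cells and bind the glucocorticoid receptor, a transcription factor held in the cytoplasm by heat shock proteins until the hormone arrives. The bound receptor moves to the nucleus, raises the transcription of metabolic and anti-inflammatory genes and lowers that of many cytokine genes. In skeletal muscle it is known for driving protein breakdown and amino acid release, and infection and LPS raise circulating glucocorticoids in the animal.

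The values were FPKM, fragments scaled by transcript length and by the fragments mapped in the library, so levels of different genes are set side by side per length. Fold changes were computed on log2(FPKM + 0.1), which understates the change of low genes. A gene was tested where its mean over the 9 libraries of a table exceeded 1 FPKM, and was called where the absolute log2 fold change exceeded 1 and the adjusted p from limma (Benjamini-Hochberg over all genes tested) was under 0.001 in C2C12 or under 0.05 in muscle. This left 10877 genes in C2C12 and 9475 in muscle, with 7 of the 8 members in each. Replicates correlated at 0.936 to 0.989 within C2C12 groups and at 0.949 to 0.962 within muscle groups. The number of reads per library is unknown. Groups are said not to overlap where every library of the higher group lay above every library of the lower group. The share of all tested genes without overlap was not counted. An FPKM of 0 may be a failed estimate, because the widely used gene Ywhaz was listed at 0 in 2 muscle libraries.

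The marker lists went against the labelled cell type in C2C12. The summed FPKM of the macrophage list (14 of 16 genes found, led by Lyz2, Cd14 and Tyrobp) was 9357 to 9416 in the libraries labelled control, 6266 to 6439 in those labelled LPS and 78.5 to 251 in those labelled LPS-MIC-1, where C1qa was at 0. The myogenic list (11 of 12 found, led by Des, Itga7 and Cdh15) summed to 1.08 to 1.52, 2.43 to 4.58 and 1078 to 1374 in the same order. The myogenic factors Myf5, Pax7, Myf6 and Msc were at 0 in every control and LPS library, and Myog also in every control library. The fibroblast list (led by Col3a1, Dcn and Col1a2) summed to at most 1.95 in control and LPS and to 442 to 537 in LPS-MIC-1. The cells labelled C2C12 are therefore called by their labels only. Each C2C12 comparison with LPS-MIC-1 below also compares libraries with these unlike marker levels, and the part of the marker difference in each result was not tested.

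**Figure D1:**
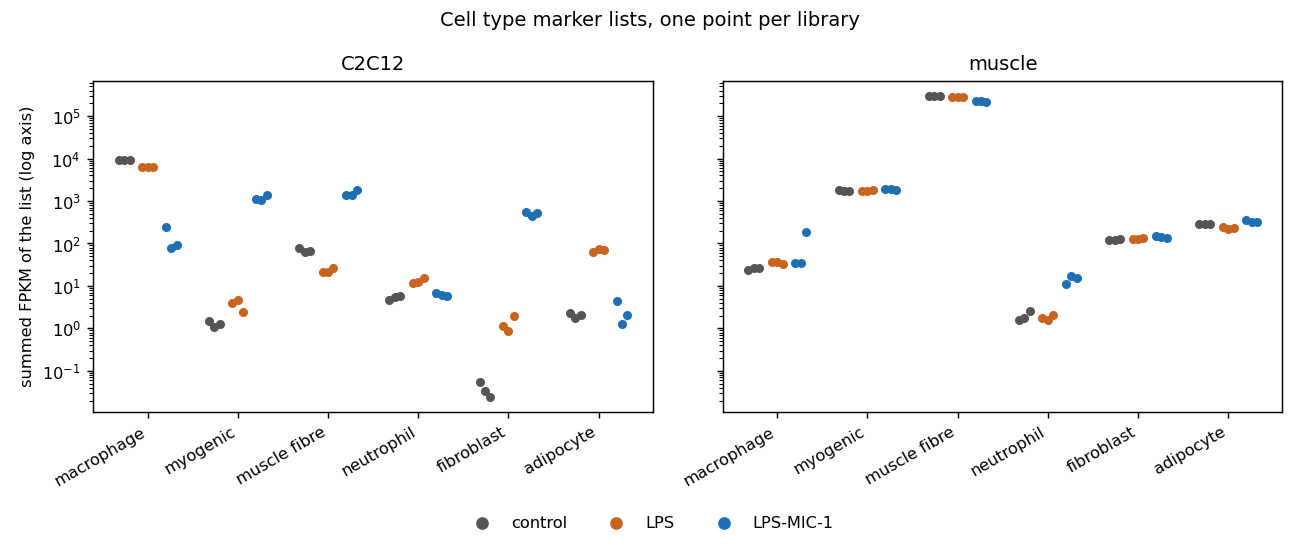
Summed FPKM of 6 cell type marker lists (log axis) in C2C12 (left) and muscle (right), with 1 point per library, coloured by group. In C2C12 the macrophage sum falls from 6266 or more in control and LPS to 251 or less in LPS-MIC-1 while the myogenic sum rises from 4.58 or less to 1078 or more, and in muscle the macrophage sum of 1 LPS-MIC-1 library stands at 183.

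In muscle the muscle fibre list (led by Acta1, Ckm and Myl1) was high in every library, with sums of 289911 to 296473 (control), 275091 to 280949 (LPS) and 215436 to 230720 (LPS-MIC-1). The macrophage sum was 23.9 to 26.9, 33.8 to 36.9 and 34.9 to 183, the last in LPS-MIC-1 replicate 3. The neutrophil list (led by S100a8, Cxcr2 and S100a9) summed to 1.58 to 2.56, 1.58 to 2.02 and 11.2 to 17.0. The intestinal epithelium list (led by Lgals4, Krt8 and Epcam) summed to 4.77 to 5.77, 6.28 to 6.42 and 17.8 to 19.8. Of the genes that glucocorticoids repress and LPS is known to raise, Ccl2 averaged 0.159 FPKM (control), 0.564 (LPS) and 10.4 (LPS-MIC-1). For this gene the libraries labelled LPS lay nearer to control than those labelled LPS-MIC-1 did. The endothelial list (led by Cdh5, Eng and Tie1) went the other way, with LPS beside LPS-MIC-1. It summed to 97.3 to 101 (control), 64.4 to 66.5 (LPS) and 61.2 to 68.3 (LPS-MIC-1). In such tissue samples fewer cells of a type and less RNA per cell cannot be told apart.

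Nr3c1, the receptor itself, averaged under 1 FPKM over the libraries of each table and so did not pass the filter. In C2C12 it was at 1.01, 0.395 and 0.143 FPKM in the control libraries, at 2.13, 2.06 and 2.14 in the LPS libraries and at 0 in all 3 LPS-MIC-1 libraries. The groups did not overlap, and LPS libraries were the highest. With no filter on low values, the LPS against control difference was 2.11 on the log2 scale (SE 0.470) with an adjusted p of 0.00574 from limma, short of the C2C12 threshold. In the same unfiltered fit, which tested the genes above 0 in at least 3 libraries, the LPS-MIC-1 libraries were called lower for Nr3c1 against LPS (adjusted p from limma 3.53e-05). The gene was not called against control (adjusted p from limma 0.00194), and no fold is given against a group listed at 0. In muscle Nr3c1 was at 0.498, 0.743 and 0.889 FPKM in control, at 0.662, 0.252 and 0.997 in LPS and at 0, 0.237 and 0.449 in LPS-MIC-1. LPS overlapped with both other groups, and every LPS-MIC-1 library was below every control library. Without the filter the adjusted p from limma was 0.877 for LPS against control, 0.149 for LPS-MIC-1 against LPS and 0.0874 for LPS-MIC-1 against control. The related mineralocorticoid receptor gene Nr3c2 was also low, with group means of 0.0216 to 0.117 FPKM in C2C12 and 0.578 to 0.977 in muscle.

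**Figure D2:**
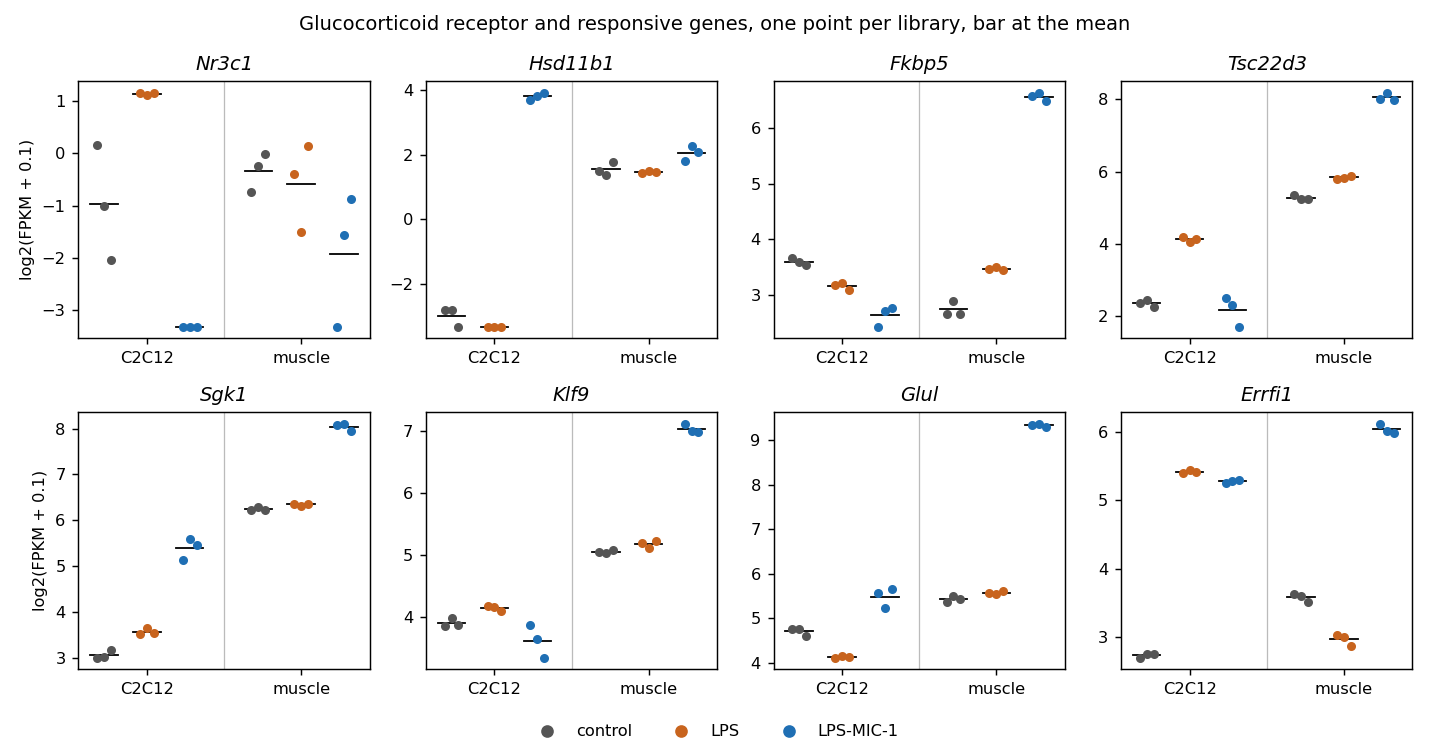
log2(FPKM + 0.1) of the 8 members, with 1 panel per gene, 1 point per library, a bar at the group mean and colours by group (each panel has its own vertical range). In muscle the LPS-MIC-1 libraries lie above all others for Fkbp5, Tsc22d3, Sgk1, Klf9, Glul and Errfi1, whereas in C2C12 the order of the groups differs from gene to gene.

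Hsd11b1 encodes the enzyme that turns inactive glucocorticoid back into the active hormone inside the cell. In C2C12 it was at 0.0429, 0.0424 and 0 FPKM in control, at 0 in all 3 LPS libraries and at 12.9, 13.9 and 15.1 in LPS-MIC-1. It was thus high in the LPS-MIC-1 libraries and at or near 0 in the others, and it passed the filter only through that group, so its direction there was fixed by the filter and its levels are given as a description. No fold is given, since LPS was listed at 0 and control was at or near 0. In muscle Hsd11b1 was at 2.71, 2.51 and 3.35 FPKM in control, at 2.61, 2.75 and 2.65 in LPS and at 3.41, 4.78 and 4.14 in LPS-MIC-1. The control and LPS libraries overlapped, and the LPS-MIC-1 libraries were the highest. The log2 fold change was 0.59 (SE 0.145, adjusted p from limma 0.00836) for LPS-MIC-1 against LPS and 0.51 (SE 0.145, adjusted p 0.0165) against control, so neither was called. Hsd11b2, which inactivates the hormone, had group means of at most 0.404 FPKM in C2C12 and 0.123 in muscle and was not tested.

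In muscle, LPS against control moved the tested members by less than the fold threshold. Among all 9475 rises Fkbp5 stood at rank 350, Tsc22d3 at 519, Glul at 2566, Klf9 at 2897 and Sgk1 at 3159. Among all falls Errfi1 stood at rank 534 and Hsd11b1 at 3343. None of the 7 tested members was called, where 0.654% of all tested genes were called higher and 0.591% lower. At an unadjusted p under 0.05 in the limma fit, 4 members were higher and 1 was lower, beside 1461 and 1348 of all 9475 tested genes. By a count chosen after the values were seen, 3 members were higher and 1 was lower at an adjusted p under 0.05 whatever the fold, beside 8.25% and 7.48% of all tested genes.

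Fkbp5 encodes a co-chaperone that lowers the receptor's affinity for the hormone and is itself a receptor target, which makes a feedback loop. In muscle it was at 6.19, 7.37 and 6.26 FPKM in control, at 10.9, 11.3 and 10.8 in LPS and at 94.8, 98.8 and 88.8 in LPS-MIC-1. The 3 groups did not overlap. LPS was higher than control by a log2 fold change of 0.73 (SE 0.0732, adjusted p from limma 0.000448), under the fold threshold. Tsc22d3, which encodes the glucocorticoid-induced leucine zipper, an anti-inflammatory protein, was at 40.7, 37.8 and 38.0 FPKM in control, at 55.5, 57.0 and 59.2 in LPS and at 257, 289 and 252 in LPS-MIC-1. Its groups did not overlap either, and its log2 fold change in LPS against control was 0.56 (SE 0.0571, adjusted p from limma 0.000476). Errfi1, a feedback inhibitor of the epidermal growth factor receptor, was at 12.3, 11.98 and 11.3 FPKM in control, at 8.03, 7.90 and 7.23 in LPS and at 69.5, 64.4 and 62.9 in LPS-MIC-1. LPS libraries were the lowest and LPS-MIC-1 libraries the highest. In LPS against control the log2 fold change was -0.61 (SE 0.0602, adjusted p from limma 0.000398).

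The other tested members differed less between muscle LPS and control. Glul, glutamine synthetase, was at 41.2, 45.4 and 42.9 FPKM in control and at 47.6, 46.7 and 48.6 in LPS, with a log2 fold change of 0.14 (SE 0.0408, adjusted p from limma 0.0484, and 0.0665 with no filter on low values). Klf9, a transcription factor gene that the receptor induces, was at 33.2, 32.7 and 33.8 FPKM in control and at 36.4, 34.5 and 37.5 in LPS (log2 fold change 0.12, adjusted p from limma 0.129). Sgk1, a serine/threonine kinase that regulates ion transport, was at 75.0, 77.9 and 75.1 FPKM in control and at 82.4, 80.0 and 82.2 in LPS (log2 fold change 0.10, adjusted p from limma 0.17). The groups did not overlap for any of these 3 genes, but only Glul passed the adjusted p. In this comparison 2809 of all 9475 tested genes had an unadjusted p under 0.05 in the limma fit.

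In muscle, 6 of the 7 tested members were called higher in LPS-MIC-1 than in LPS and none lower. The members were chosen with earlier results of these data known, so this count is given as a description. At an unadjusted p under 0.05 in the limma fit 0 were lower, beside 2889 of all 9475 tested genes. Of all tested genes, 9.67% were called higher and 5.44% lower. That is 916 higher and 515 lower, and 781 and 667 after quantile normalization, which left the 6 calls in place. The same numbers, 6 and 0, were found against control, where 9.33% of all tested genes were called higher and 6.12% lower. These 2 comparisons share the LPS-MIC-1 libraries. The summed FPKM of the 8 members ranged over 212 to 216 (control), 240 to 249 (LPS) and 1410 to 1525 (LPS-MIC-1).

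Glul had the largest fold among the members, with 650.0, 664 and 629 FPKM in LPS-MIC-1. That was 13.6 times the LPS mean (log2 fold change 3.76, SE 0.0408, adjusted p from limma 2.94e-10), rank 103 of 9475 among all rises, and 15.0 times the control mean. Fkbp5 was 8.56 times as high in LPS-MIC-1 as in LPS (log2 fold change 3.08, SE 0.0732, adjusted p from limma 1.03e-08) and 14.3 times as high as in control. Errfi1 was 8.49 times as high as in LPS (log2 fold change 3.07, SE 0.0602, adjusted p from limma 3.59e-09), although it had been lower in LPS than in control, and 5.53 times as high as in control. In each of these 3 genes every LPS-MIC-1 library lay above every other muscle library.

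Tsc22d3 was 4.65 times as high in LPS-MIC-1 as in LPS (log2 fold change 2.21, SE 0.0571, adjusted p from limma 1.69e-08) and 6.86 times as high as in control. Klf9 was at 139, 128 and 127 FPKM in LPS-MIC-1, 3.63 times the LPS mean (log2 fold change 1.86, SE 0.0469, adjusted p from limma 1.49e-08). Sgk1 was at 270.0, 276 and 246 FPKM in LPS-MIC-1, 3.24 times the LPS mean (log2 fold change 1.69, SE 0.0445, adjusted p from limma 1.81e-08). Both lay above all control and LPS libraries. LPS-MIC-1 replicate 3, the library with the high macrophage sum, was the lowest of its group for Fkbp5, Tsc22d3, Sgk1, Klf9, Glul and Errfi1, and the 6 calls were also made without it.

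**Figure D3:**
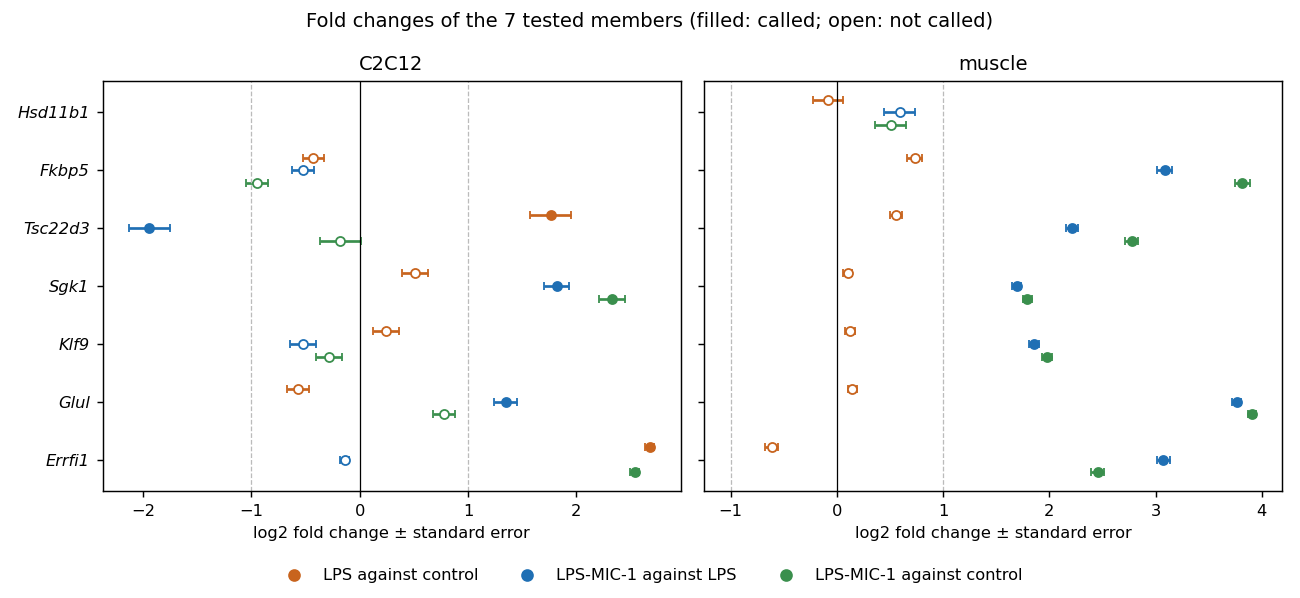
log2 fold changes with standard errors of the 7 tested members in C2C12 (left) and muscle (right), with filled points called and open points not called, dashed lines at the fold threshold of 1, and no point where a group was at or near 0. In muscle, 6 members lie between 1.69 and 3.91 in the comparisons with LPS-MIC-1, and in C2C12 the members spread to both sides of 0.

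The order of the members' levels in muscle changed between groups. In control the order by mean FPKM was Sgk1 (76.0), Glul (43.1), Tsc22d3 (38.8), Klf9 (33.2), Errfi1 (11.9), Fkbp5 (6.61), Hsd11b1 (2.86) and Nr3c1 (0.710), and no neighbours overlapped. In LPS Tsc22d3 stood above Glul and Fkbp5 above Errfi1, again without overlap. In LPS-MIC-1 Glul was first at 648 FPKM, followed by Tsc22d3 (266) and Sgk1 (264), whose libraries overlapped, and then by Klf9, Fkbp5, Errfi1, Hsd11b1 and Nr3c1.

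Fkbp4 encodes the co-chaperone that competes with the product of Fkbp5 on the receptor complex and favours its move to the nucleus. In muscle the control mean was 82.8 ± 0.619 FPKM, the LPS mean 79.1 ± 1.05 and the LPS-MIC-1 mean 53.7 ± 1.57 (SD, n = 3). Its log2 fold change in LPS-MIC-1 against LPS was -0.56 (adjusted p from limma 1.41e-06), which was not called. The ratio of Fkbp5 to Fkbp4, added after the values were seen and given without a test, was 0.0755, 0.0886 and 0.0753 in the control libraries, 0.139, 0.144 and 0.134 in LPS and 1.76, 1.90 and 1.61 in LPS-MIC-1. Fkbp5 exceeded Fkbp4 in the 3 LPS-MIC-1 muscle libraries and in no other library of either table, since in C2C12 the group means of the ratio were 0.0814 (control), 0.1495 (LPS) and 0.0305 (LPS-MIC-1).

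The rest of the receptor machinery (17 genes for chaperones, co-chaperones, coregulators and hormone metabolism, 14 tested in muscle) had no called member in any muscle comparison. At an unadjusted p under 0.05 in the limma fit, 7 were higher and 1 was lower in LPS against control, LPS-MIC-1 was above LPS for 0 and below it for 9, and it was above control for 2 and below it for 9. Of all 9475 tested genes, 1461 were higher and 1348 lower at that p in LPS against control. LPS-MIC-1 was above LPS for 2892 of them and below it for 2889, and above control for 3030 and below it for 2906. The median log2 fold change of the list in LPS-MIC-1 against LPS was -0.31, beside -0.01 over all tested genes, whereas that of the 7 tested members was 2.21.

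Another 31 genes known to be induced by glucocorticoids were found in the table, and 25 were tested in muscle. This list too was chosen with earlier results of these data known. In LPS-MIC-1 against LPS, 22 were called higher and 1 lower, and the list had its median log2 fold change at 3.04. Of all tested genes, 9.67% were called higher and 5.44% lower in this comparison. Against control, 23 were called higher and none lower, with a median of 3.15, where 9.33% of all tested genes were called higher and 6.12% lower. At an unadjusted p under 0.05 in the limma fit 2 were lower there, beside 2906 of all 9475 tested genes. Genes that were low in control and LPS, such as Angptl4 and Foxo3, passed the filter through LPS-MIC-1, where they were high. Their direction was fixed by the filter, so these counts are given as a description. In LPS-MIC-1 against LPS the Zbtb16 call was lost without LPS replicate 1 or 3 or any LPS-MIC-1 library (adjusted p from limma 0.0504 to 0.0618). The metallothionein gene Mt2, whose product binds zinc and copper, rose from a mean of 35.8 FPKM in LPS to 6452 in LPS-MIC-1 (log2 fold change 7.49, adjusted p from limma 2.47e-11). Ddit4, an inhibitor of mTOR signalling, rose from 2.51 to 240 FPKM (6.52, adjusted p 1.22e-09 from limma), and Cebpd, a transcription factor gene, from 4.66 to 399 FPKM (6.40, adjusted p 1.02e-09 from limma). Dusp1, a phosphatase that inactivates MAP kinases, fell from 48.5 to 23.1 FPKM (-1.07, adjusted p 9.42e-07 from limma).

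Genes of muscle protein breakdown and fuel use stood among the called genes of this list, and they are named here after their values were seen. The ubiquitin ligase gene Trim63 rose from a mean of 78.9 FPKM in muscle LPS to 2263 in LPS-MIC-1 (log2 fold change 4.84, adjusted p from limma 7.47e-11), and the ubiquitin ligase gene Fbxo32 from 21.9 to 225 FPKM (3.35, adjusted p 4.21e-10 from limma). Foxo1, a transcription factor gene upstream of both in atrophy, rose from 2.85 to 35.8 FPKM (3.61, adjusted p 1.61e-09 from limma). Klf15, a receptor target that drives amino acid breakdown, rose from 5.34 to 88.7 FPKM (4.03, adjusted p 1.42e-09 from limma). Pdk4, which holds back glucose oxidation, rose from 25.8 to 1070.0 FPKM (5.37, adjusted p 2.47e-11 from limma). Mstn, a secreted inhibitor of muscle growth, was at 38.7 and 60.9 FPKM (0.65, adjusted p 2.82e-05 from limma) and was not called.

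In LPS against control in muscle, 3 of the 25 induced genes were called higher and 1 lower, beside 0.654% and 0.591% of all tested genes. Mt2 rose by 2.16 on the log2 scale, Arrdc2, an arrestin domain gene, by 1.51 and Mt1 by 1.46, while Cebpd fell by 1.46 on the log2 scale (adjusted p from limma 4.34e-07, 1.43e-06, 1.32e-05 and 4.97e-05). The list's median was 0.07, beside 0.01 over all tested genes.

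**Figure D4:**
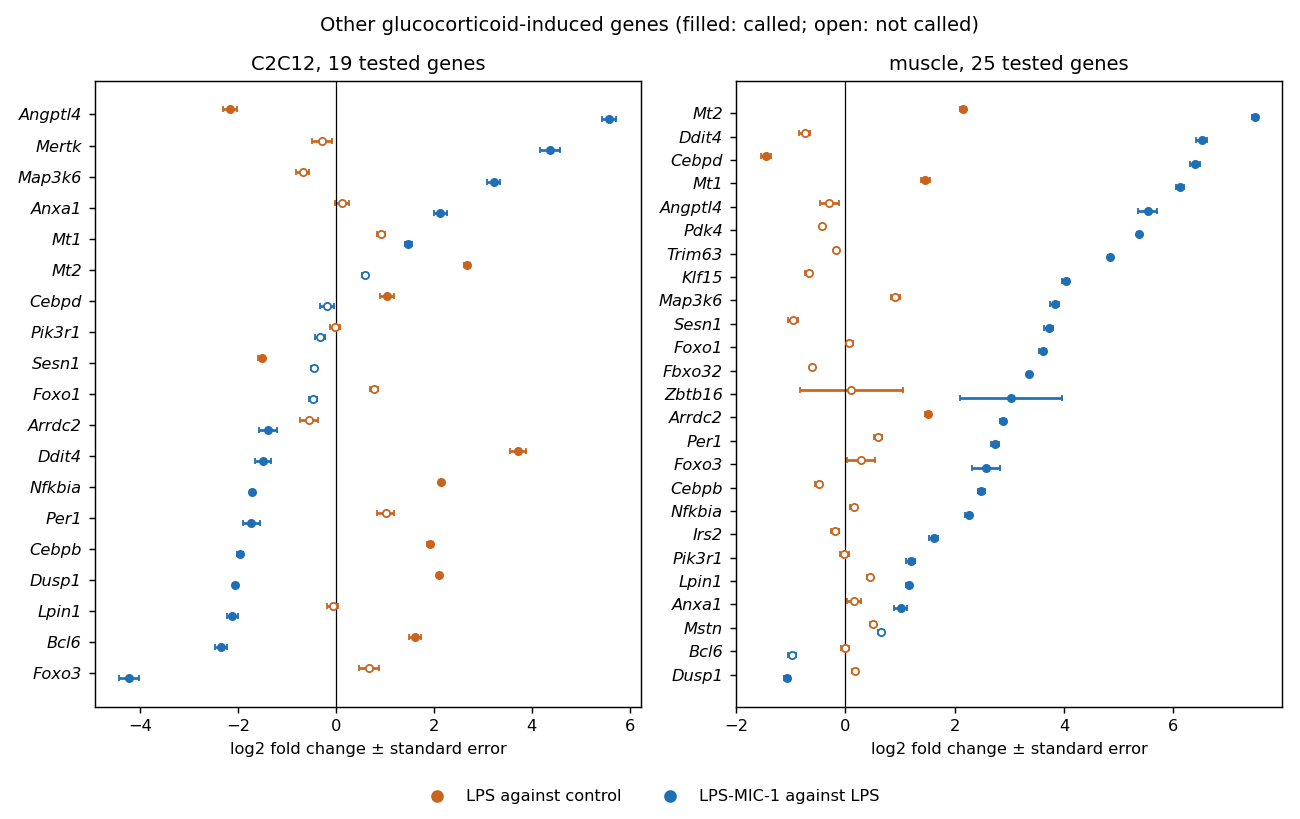
log2 fold changes with standard errors of the tested genes of the glucocorticoid-induced list in C2C12 (left, 19 genes) and muscle (right, 25 genes), ordered by LPS-MIC-1 against LPS, with filled points called and open points not called. In muscle 22 genes are called higher in LPS-MIC-1 than in LPS, up to 7.49 for Mt2, and in C2C12 5 are called higher and 9 lower.

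Of 10 inflammatory genes that glucocorticoids repress, 3 were tested in muscle, and these passed the filter through the LPS-MIC-1 group, where they were high, so their calls there are given as a description. The chemokine gene Cxcl10 was at a mean of 0.552 FPKM (control), 0.240 (LPS) and 14.1 (LPS-MIC-1), the chemokine gene Ccl2 at 0.159, 0.564 and 10.4, and the adhesion molecule gene Icam1 at 0.946, 0.749 and 6.82 in the same order. None of them was tested with a mean FPKM over 5. In LPS against control only Ccl2 was called (log2 fold change 1.35, adjusted p from limma 0.0151). That call was lost with a pseudocount of 1, with only the 6 libraries compared, without LPS replicate 1 and without LPS replicate 2 (adjusted p from limma 0.0482, 0.0577, 0.0511 and 0.0504), the first by its fold, and without LPS replicate 2 Cxcl10 was called lower.

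In C2C12, 2 of the 7 tested members were called higher in LPS than in control and none lower, where 10.9% of all tested genes were called higher and 10.0% lower. At an unadjusted p under 0.05 in the limma fit 2 members were lower, beside 3651 of all 10877 tested genes. Errfi1 was at 6.40, 6.65 and 6.64 FPKM in control and at 42.1, 43.2 and 42.4 in LPS, a 6.49-fold higher mean (log2 fold change 2.68, SE 0.0409, adjusted p from limma 6.61e-09). Tsc22d3 was at 5.12, 5.38 and 4.66 FPKM in control and at 18.3, 16.4 and 17.4 in LPS, a 3.44-fold higher mean (log2 fold change 1.76, SE 0.189, adjusted p from limma 7.36e-05). Neither gene's groups overlapped.

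The other C2C12 members were not called in LPS against control. Fkbp5 was at 12.5, 11.9 and 11.5 FPKM in control and at 8.95, 9.22 and 8.44 in LPS (log2 fold change -0.43, adjusted p from limma 0.00596). Glul was at 26.9, 27.0 and 24.3 FPKM in control and at 17.3, 17.8 and 17.5 in LPS (-0.57, adjusted p from limma 0.00149). Sgk1 was at 7.99, 8.04 and 8.92 FPKM in control and at 11.5, 12.5 and 11.7 in LPS (0.51, adjusted p from limma 0.00548). Klf9 was at 14.4, 15.8 and 14.6 FPKM in control and at 18.0, 17.9 and 17.2 in LPS (0.24, adjusted p from limma 0.113). In none of these genes did the groups overlap, with LPS lower for Fkbp5 and Glul and higher for Sgk1 and Klf9. In this comparison 7198 of all 10877 tested genes had an unadjusted p under 0.05 in the limma fit.

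In LPS-MIC-1 against LPS in C2C12, 3 tested members were called higher and 1 lower, where 24.3% of all tested genes were called higher and 25.6% lower. Hsd11b1, which passed the filter only through LPS-MIC-1, was among the 3 higher and adds no support to the count. Sgk1 was at 34.9, 48.4 and 44.3 FPKM in LPS-MIC-1, 3.58 times the LPS mean (log2 fold change 1.82, SE 0.118, adjusted p from limma 1.47e-06). Glul was at 47.3, 37.7 and 50.3 FPKM, 2.57 times the LPS mean (1.35, SE 0.103, adjusted p from limma 4.12e-06). Tsc22d3 was at 5.63, 4.87 and 3.19 FPKM, below every LPS library (-1.94, SE 0.189, adjusted p from limma 1.88e-05). The macrophage list, whose sum was at least 6266 in LPS and at most 251 in LPS-MIC-1, fell as Tsc22d3 did. The myogenic and fibroblast lists rose as Hsd11b1, Sgk1 and Glul did, with all 8 and all 5 of their tested genes called higher. The part of these lists in the 4 results was not tested.

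Fkbp5, Klf9 and Errfi1 were not called in that C2C12 comparison. Fkbp5 was at 5.30, 6.49 and 6.73 FPKM in LPS-MIC-1 (log2 fold change -0.52, adjusted p from limma 0.0013), Klf9 at 14.5, 12.5 and 10.1 (-0.53, adjusted p from limma 0.00346) and Errfi1 at 38.0, 38.8 and 39.2 (-0.14, adjusted p from limma 0.012). All LPS-MIC-1 libraries were below all LPS libraries for these genes. In this comparison 9269 of all 10877 tested genes had an unadjusted p under 0.05 in the limma fit.

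In LPS-MIC-1 against control in C2C12, 2 members were lower at an unadjusted p under 0.05 in the limma fit, beside 4607 of all 10877 tested genes. By the calls 3 members were higher and none lower, where 21.1% of all tested genes were called higher and 22.1% lower. Besides Hsd11b1, to which the same limit applies, these were Errfi1 (5.89-fold, log2 fold change 2.54, adjusted p from limma 1.93e-09) and Sgk1 (5.11-fold, log2 fold change 2.33, adjusted p from limma 3.73e-07). Fkbp5 stood at a log2 fold change of -0.95 (SE 0.1003, adjusted p from limma 3.66e-05), just under the fold threshold, and was called at -1.01 without LPS-MIC-1 replicate 3. Glul was at 0.78 (adjusted p from limma 0.000154). Tsc22d3 (-0.18, adjusted p from limma 0.399) and Klf9 (-0.28, adjusted p from limma 0.0582) overlapped between the groups, and the direction of Tsc22d3 turned to 0.02 after quantile normalization.

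The order of the members' levels in C2C12 was Glul (26.1 FPKM), Klf9 (14.9), Fkbp5 (11.96), Sgk1 (8.32), Errfi1 (6.56), Tsc22d3 (5.05), Nr3c1 (0.517) and Hsd11b1 (0.0284) in control, with no overlap between neighbours. In LPS Errfi1 was first at 42.6 FPKM, and Klf9, Glul and Tsc22d3 followed at 17.7, 17.5 and 17.4 with overlapping libraries. In LPS-MIC-1 Glul (45.1), Sgk1 (42.5) and Errfi1 (38.6) overlapped in turn, as did Hsd11b1 (14.0) with Klf9 (12.4) and Fkbp5 (6.18) with Tsc22d3 (4.56).

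The receptor machinery had 15 tested genes in C2C12. In LPS against control 4 were higher at an unadjusted p under 0.05 in the limma fit, beside 3547 of all 10877 tested genes. By the calls none was higher and 2 were lower, Fkbp4 (log2 fold change -1.31, adjusted p from limma 9.43e-06) and the cyclophilin gene Ppid (-1.01, adjusted p 1.73e-05 from limma). Of all tested genes, 10.9% were called higher and 10.0% lower. Ppid missed the fold threshold without control replicate 3 (-0.98) or LPS replicate 2 (-0.97). In LPS-MIC-1 against LPS 7 were called higher and 5 lower, where 24.3% of all tested genes were called higher and 25.6% lower. The co-chaperone genes Bag1 (1.89), Stip1 (1.87) and Fkbp4 (1.77) had the largest rises, and the coactivator genes Ncoa3 (-2.93), Ncoa2 (-2.88) and Ncoa1 (-2.13) the largest falls on the log2 scale. In LPS-MIC-1 against control 3 were called higher, Hsp90aa1, Bag1 and Stip1, and 4 lower, led by Ncoa2 (-2.92). Of all tested genes, 21.1% were called higher and 22.1% lower there.

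Of the glucocorticoid-induced list, 19 genes were tested in C2C12. In LPS against control 7 were called higher and 2 lower, with Ddit4 (log2 fold change 3.72), Mt2 (2.68) and Nfkbia (2.15), which encodes an inhibitor of NF-κB, rising most, and Angptl4 (-2.15), an inhibitor of lipoprotein lipase, and Sesn1 (-1.51), a stress-response gene, falling. Of all tested genes, 10.9% were called higher and 10.0% lower in this comparison. In LPS-MIC-1 against LPS 5 were called higher and 9 lower, with a median of -0.47 beside -0.05 over all tested genes. The shares of all tested genes called were 24.3% higher and 25.6% lower. With no filter on low values the split of the list was 11 higher and 9 lower. Angptl4 (5.58), the phagocytic receptor gene Mertk (4.37) and the kinase gene Map3k6 (3.22) rose most, Mertk passing the filter only through LPS-MIC-1 (mean 4.18 FPKM, against 0.106 in LPS), and Foxo3 (-4.22), Bcl6 (-2.34) and Lpin1 (-2.11) fell most. In LPS-MIC-1 against control 7 were called higher, led by Mertk (4.09), Angptl4 (3.43) and Mt2 (3.27), and 4 lower, led by Foxo3 (-3.54), Lpin1 (-2.17) and Sesn1 (-1.96). The shares of all tested genes called were 21.1% higher and 22.1% lower.

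Of the genes repressed by glucocorticoids, 9 were tested in C2C12. In LPS against control 6 were called higher and none lower, where 10.9% of all tested genes were called higher and 10.0% lower. At an unadjusted p under 0.05 in the limma fit 0 were lower, beside 3651 of all 10877 tested genes. Among the 6 were the prostaglandin synthase gene Ptgs2, which rose from a mean of 15.9 to 2684 FPKM (log2 fold change 7.39), the nitric oxide synthase gene Nos2 (2.34 to 735 FPKM, 8.27) and the cytokine gene Il6, listed at 0 in control and at a mean of 56.8 FPKM in LPS. The Nos2 call was lost whenever 1 control or LPS library was left out, with adjusted p-values from limma of 0.00263 to 0.00328. With only the 6 libraries compared, or without LPS-MIC-1 replicate 1, 8 of the 9 genes were called higher, Nos2 among them. The cytokine genes Il1b (log2 fold change 6.19) and Tnf (2.78) were called there (adjusted p from limma 3.18e-08 to 1.84e-07) but not in the main fit. In LPS-MIC-1 against LPS 8 were called lower, with Nos2 (-8.82), Il1b (-7.97) and Tnf (-7.12) falling most, and 1, the collagenase gene Mmp13, was called higher (2.26). Of all tested genes, 25.6% were called lower and 24.3% higher. Mmp13 passed the filter only through LPS-MIC-1, so its call is given as a description. It was lost with a pseudocount of 0.01 (adjusted p from limma 0.00104). LPS-MIC-1 replicate 1, the library with the highest macrophage sum of its group, stood apart from replicates 2 and 3 in these falls, with Nos2 at 18.3, 0.483 and 0.297 FPKM, Il1b at 5.09, 0.0970 and 0.185 and Tnf at 13.2, 1.19 and 1.24 in the order of the replicate numbers. Without it the log2 fold changes were -10.58 for Nos2, -9.46 for Il1b and -8.24 for Tnf. The Nos2 call was lost when any LPS library or LPS-MIC-1 replicate 2 was left out, with adjusted p-values from limma of 0.0012 to 0.00126. In LPS-MIC-1 against control 3 were called higher and 2, Icam1 and Cxcl10 (-2.17), lower, beside 21.1% and 22.1% of all tested genes. Mmp13, which passed the filter only through LPS-MIC-1, was among the 3 higher. Icam1 averaged 29.9 FPKM in control and was at 0.664, 0 and 0 in LPS-MIC-1, so no fold is given. Without LPS-MIC-1 replicate 1, 9 genes were called against control, 4 higher and 5 lower. The macrophage list was also lower in the LPS-MIC-1 libraries, and the part of the list in these falls was not tested.

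The genes most like Fkbp5 across the 9 muscle libraries, by the root mean square difference of centred log2 values, were Hspb7 (0.143), 6430548M08Rik (0.182) and Ucp3 (0.201). Hspb7 encodes a small heat shock protein of muscle and averaged 29.3 (control), 57.5 (LPS) and 456 FPKM (LPS-MIC-1). Ucp3 encodes a mitochondrial carrier of muscle and averaged 51.5, 62.9 and 628 FPKM in the same order. In C2C12 the genes most like Fkbp5 over 9 libraries were Zmiz2 (0.0709), Mzt1 (0.0736) and Psat1 (0.0748). Those most like Nr3c1 were less close, Lck (0.483), Myst4 (0.512) and Slc45a3 (0.526) in C2C12 and Fam118b (0.474), Rmi1 (0.491) and Ppp1r14a (0.518) in muscle.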

How the data were processed

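RNA-seq was measured in 18 libraries, 3 for each of 3 groups in C2C12 and in gastrocnemius muscle. The authors quantified reads by pseudoalignment with kallisto and deposited FPKM values, one table for C2C12 and one for muscle. The submitters' processing notes name the build mm9 without saying for what it was used, and the tables of the authors' own DESeq2 comparisons (fold changes and p-values) were not used. The muscle table has 11 unnamed columns, 9 of them with per-sample values, which were not used. Libraries were grouped by their titles. Each table was fitted apart with limma 3.58.1 in R 4.3.3 on log2(FPKM + 0.1), with group means over its 9 libraries, a mean-variance trend and Benjamini-Hochberg adjustment over genes with a mean above 1 FPKM. No test was made between the tables. The thresholds (absolute log2 fold change over 1 with an adjusted p under 0.001 in C2C12 and under 0.05 in muscle) follow the study. An exact two-sided permutation test of 3 against 3 libraries cannot go below p = 0.1, so no such test is given. The depth of the libraries is unknown. The members and gene lists were chosen with earlier results of these data known. Named genes were the 8 members, Fkbp4, Nr3c2 and Hsd11b2, up to 3 largest called rises and falls per list and comparison, the 3 genes most like Nr3c1 and Fkbp5, and the 3 highest markers per list; others are said to be chosen after their values were seen. The alternatives were other pseudocounts, filters and scalings, no trend, a replicate block, only the 6 libraries compared, and leaving out each library. The fit was tested on simulated data. Figures were drawn with matplotlib 3.10.9.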

Additional observations from a re-analysis of the deposited data

Results flagged for a closer look

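In 8 cases every library of a member moved in opposite directions in C2C12 and in muscle under the same contrast. These differences between the tables were not tested, since the tables were quantified and fitted apart, and the labelled C2C12 groups differed in macrophage and myogenic markers. The values are muscle minus C2C12 log2 fold changes. For Fkbp5 the difference was 1.16 in LPS against control (0.73 in muscle and -0.43 in C2C12), 3.61 in LPS-MIC-1 against LPS (3.08 and -0.52) and 4.77 in LPS-MIC-1 against control (3.82 and -0.95). For Errfi1 it was -3.29 in LPS against control (-0.61 and 2.68) and 3.21 in LPS-MIC-1 against LPS (3.07 and -0.14). In LPS-MIC-1 against LPS it was 4.16 for Tsc22d3 (2.21 and -1.94) and 2.38 for Klf9 (1.86 and -0.53). For Glul it was 0.71 in LPS against control (0.14 and -0.57).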

How the results depend on the processing

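The number of members called stayed within 1.5 times its value under all alternatives, in all 6 comparisons. Of the member fold changes, 355 of those under other settings and 357 of those with a library left out kept their direction and their side of the threshold. Tsc22d3 in C2C12 LPS-MIC-1 against control turned to 0.0207 under quantile normalization and ranged from -0.35 to 0.0531 (without LPS-MIC-1 replicate 3) with a library left out. Hsd11b1 in muscle LPS against control ranged from -0.17 to 0.0333 (without control replicate 3). Fkbp5 in C2C12 LPS-MIC-1 against control ranged from -1.01 to -0.84. The genes called in muscle LPS against control were 71 with a pseudocount of 1 and 57 with a mean FPKM over 5, beside 118. With no filter and with a mean FPKM over 5 they were 2158 and 656 in muscle LPS-MIC-1 against LPS, beside 1431, and 2240 and 677 in LPS-MIC-1 against control, beside 1464. Fewer or more genes are tested under these filters. The receptor machinery genes called in C2C12 LPS against control were 1 with a pseudocount of 1 and 1 to 3 with a library left out (1 without control replicate 3 or LPS replicate 2, 3 without LPS-MIC-1 replicate 2 or 3), and in muscle LPS-MIC-1 against LPS 1 under quantile normalization and 0 to 1 with a library left out (1 without LPS-MIC-1 replicate 1). Of the repressed genes, the Ccl2 call in muscle LPS against control was lost (0 called) with a pseudocount of 1, with a mean FPKM over 5 (not tested there), with only the 6 libraries compared and without LPS replicate 1, a range of 0 to 1 with a library left out, and also without LPS replicate 2, where Cxcl10 was called lower instead. In muscle LPS-MIC-1 against LPS and against control, 6 repressed genes were called with no filter and 0 with a mean FPKM over 5. In C2C12 LPS-MIC-1 against control, 5 to 9 were called with a library left out (9 without LPS-MIC-1 replicate 1). The induced genes called in C2C12 LPS-MIC-1 against LPS split into 11 higher and 9 lower with no filter, beside 5 and 9. The cause of these changes, other than the number of genes tested, was not tested. Quantile normalization moved the median of all genes in muscle to -0.116 in LPS-MIC-1 against LPS and to -0.101 against control, and the calls there to 781 higher and 667 lower, beside 916 and 515, and to 782 and 713, beside 884 and 580. Libraries with the same replicate number did not deviate together (correlations of -0.0757 to 0.0573 in C2C12 and -0.054 to 0.0823 in muscle). No pairing by number was seen, but libraries with equal numbers could still have been handled together, which these correlations cannot show. With a replicate block the genes called were 2056, 5227 and 4472 in C2C12 and 115, 1431 and 1463 in muscle, in the order LPS against control, LPS-MIC-1 against LPS and LPS-MIC-1 against control, and the block changed no member's call. The unknown depth limits what can be said of Nr3c1 and other genes near 0.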

Other observations

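The marker lists not described above had these summed FPKM, as the lowest and highest library of control, of LPS and of LPS-MIC-1. In muscle the fibroblast list (led by Dcn, Col3a1 and Col1a1) summed to 123 to 129, 128 to 131 and 134 to 153, the endothelial list (Cdh5, Eng and Tie1) to 97.3 to 101, 64.4 to 66.5 and 61.2 to 68.3, and the adipocyte list (Fabp4, Cfd and Adipoq) to 288 to 294, 220 to 244 and 324 to 352. The myogenic list (Des, Myf6 and Myod1) summed to 1708 to 1820, 1767 to 1787 and 1830 to 1967. These fibroblast and myogenic sums rest on their highest genes, and most genes of both lists went the other way in LPS-MIC-1 against LPS. Of the 7 tested fibroblast genes 3 were called lower and none higher (median log2 fold change -0.957). Of the 8 tested myogenic genes 1 was called lower and none higher (median -0.211). The median over all tested genes was -0.00896, and 9.67% were called higher and 5.44% lower. The lymphocyte list (Cd3d, Cd79a and Cd3e) stayed between 0.654 and 1.08, and the hepatocyte list (Cyp2e1, Alb and Apoa2) summed to 0.999 to 1.59, 0.966 to 1.64 and 5.64 to 9.63. In C2C12 the muscle fibre list (Eno3, Mylpf and Acta1) summed to 64.6 to 77.2, 21.1 to 25.8 and 1361 to 1813, the neutrophil list (S100a8, Cxcr2 and Csf3r) to 4.69 to 5.72, 11.8 to 15.5 and 5.81 to 6.93, and the adipocyte list (Fabp4, Adipoq and Cidec) to 1.72 to 2.29, 63.5 to 75.0 and 1.26 to 4.31. Adipoq, Plin1, Cidec, Lep and Cfd were at 0 in every C2C12 LPS library, so the adipocyte sum there was Fabp4 alone. The endothelial (Eng, Pecam1 and Cdh5), lymphocyte (Cd3d, Cd79a and Cd79b), intestinal epithelium (Lgals4, Krt8 and Epcam) and hepatocyte (Cyp2e1, Apoa2 and Serpina1a) lists reached at most 7.07, 7.97, 10.9 and 1.55 in any C2C12 library.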
